A study of Arabidopsis thaliana with 4 samples.

Results

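Auxin response factors (ARFs) are the transcription factors that carry the auxin signal to genes, and 10 of their genes are described here: ARF2 (AT5G62000), ARF3 (AT2G33860), ARF4 (AT5G60450), ARF6 (AT1G30330), ARF7 (AT5G20730), ARF8 (AT5G37020), ARF10 (AT2G28350), ARF16 (AT4G30080), ARF17 (AT1G77850) and ARF19 (AT1G19220). They were taken by identifier from the 32833 genes of the count table. Transcripts of 8 of them are cut by small RNAs, and ARF7 and ARF19 are the ones with no such cut. PolyA-selected mRNA had been sequenced from whole Arabidopsis thaliana seedlings, 7 days old, raised on half-strength Murashige and Skoog medium containing sucrose, with no treatment. The accession Col-0 gave 2 wild-type libraries (replicates 1 and 2). The other genotype, with 2 libraries (replicates 1 and 3), expresses a GFP fusion of MAC3B with the substitutions Q77A/D81A and is called the mutant. MAC3B, a relative of yeast Prp19, is an E3 ubiquitin ligase in the MOS4-associated complex, a partner of the spliceosome. No line with an unmutated MAC3B-GFP was among the samples, and the labels give neither the promoter nor the background of the transgene nor the number of lines. Whether replicates were grown separately is not stated either, so the p-values cover only the differences among these 4 libraries, which may be technical.

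ARFs bind auxin response elements in promoters. There Aux/IAA proteins hold some ARFs, but not all, in check through TOPLESS co-repressors until the TIR1/AFB receptors have the Aux/IAA protein degraded. ARF6, ARF7, ARF8 and ARF19 are known as activators, and ARF2, ARF3, ARF4, ARF10, ARF16 and ARF17 as repressors. miR160 cuts the transcripts of ARF10, ARF16 and ARF17, miR167 those of ARF6 and ARF8, and small interfering RNAs made from TAS3 transcripts (tasiRNAs, set off by miR390 with AGO7) those of ARF2, ARF3 and ARF4. MAC3A and MAC3B are known to be needed for normal miRNA levels.

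The small RNAs define the classes compared below, so their sequences are shown with the sites they pair with. All were read from RefSeq's TAIR10.1 assembly, in DNA letters (T for U), 5′ to 3′. Capitals mark the seed, bases 2 to 8. The mature miR160 was the same from all 3 of its loci, and miR167a and miR167b were the same as each other. The miR167d form is 22 bases long and shares their seed, while the seed of miR167c is set 1 base further on.

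miR160a-5p: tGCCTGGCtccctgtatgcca

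miR167a-5p: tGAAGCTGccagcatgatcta

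miR167d: tGAAGCTGccagcatgatctgg

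miR167c-5p: tAAGCTGCcagcatgatcttg

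miR390a-5p: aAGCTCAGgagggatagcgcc

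The tasiRNA that cuts ARFs was not annotated as a mature RNA in that genome. In its place stands the 21-base window of the TAS3A transcript (chr3:5862205-5862225, plus strand) that paired best with ARF2, ARF3 and ARF4 together, so the good match of those 3 genes is how it was chosen.

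TAS3 window: tttcttgaccttgtaagaccc

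The sites below are written in the sense of each gene's mRNA. Capitals mark each base that is not a Watson-Crick partner of the small RNA (G opposite U included). All 10 sites lay in coding sequence. ARF10, ARF16 and ARF17 kept the 3′ part of the site, which pairs with the miR160 seed, without a mismatch.

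ARF10 (chr2:12115741-12115761, plus strand, exon 2 of 4): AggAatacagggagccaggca

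ARF16 (chr4:14704141-14704161, minus strand, exon 3 of 4): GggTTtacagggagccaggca

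ARF17 (chr1:29274189-29274209, plus strand, exon 2 of 2): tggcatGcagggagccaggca

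ARF6 (chr1:10686478-10686498, minus strand, exon 13 of 14): GagatcaGgctggcagcttGT

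ARF8 (chr5:14633841-14633861, plus strand, exon 13 of 14): tagatcaGgctggcagcttGT

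ARF2 (chr5:24913262-24913282, plus strand, exon 12 of 15): gggtcttGcaaggtcaagaaT

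ARF3, first site (chr2:14325941-14325961, minus strand, exon 10 of 10): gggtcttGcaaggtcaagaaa

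ARF3, second site (chr2:14325821-14325841, minus strand, exon 10 of 10): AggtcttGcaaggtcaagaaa

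Both ARF4 sites, on chromosome 5 in exon 10 of 12, had the same letters as those of ARF3. Each site was scored by its mismatches, with a G opposite a U counted as 0.5 and any other mismatch as 1. The miR160 sites scored 0.5 to 2.5, the miR167 sites 3.0 and 4.0, and the best site of each tasiRNA target 0.5 to 1.5. The best windows of ARF7 and ARF19 scored 6.0 to 8.0 against these small RNAs, and those of the other members against the small RNAs of another class 5.5 to 8.0. The limit of a class was the best score of its own weakest member (2.5 for miR160, 4.0 for miR167, 1.5 for the TAS3 window). Its members therefore pass by construction. A window at or under that limit was found in 3 of 31346 genes for miR160 (0.00957%), in 21 for miR167 (0.0670%) and in 3 for the TAS3 window. These counts include the 3, 2 and 3 members of the classes. A match is a description of sequence and no measure of cutting.

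All 10 genes were well measured, with 252 to 9119 counts per library. Transcript level is given as CPM (counts relative to the library total, after TMM normalization), and levels are compared between genes only as CPM per kb of exon. By that measure ARF2, which restrains seed and organ size, stood far above the rest at 72.7 ± 3.48 CPM per kb (SD over the 4 libraries), and ARF17 was the lowest at 4.04 ± 0.426. ARF6 followed at 27.5 ± 1.27 and ARF7 at 16.5 ± 0.904 CPM per kb, each separate from its neighbours in every library. ARF8 (12.97 ± 0.803), ARF4 (12.01 ± 1.28), ARF3 (10.1 ± 0.976), ARF10 (8.42 ± 0.793), ARF19 (7.42 ± 0.860) and ARF16 (7.01 ± 0.511) came next, and within this run each gene overlapped its neighbours in range. ARF7 and ARF19, with no small RNA site, thus lay at places 3 and 8 of the order, and neither was at an end.

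**Figure D1:**
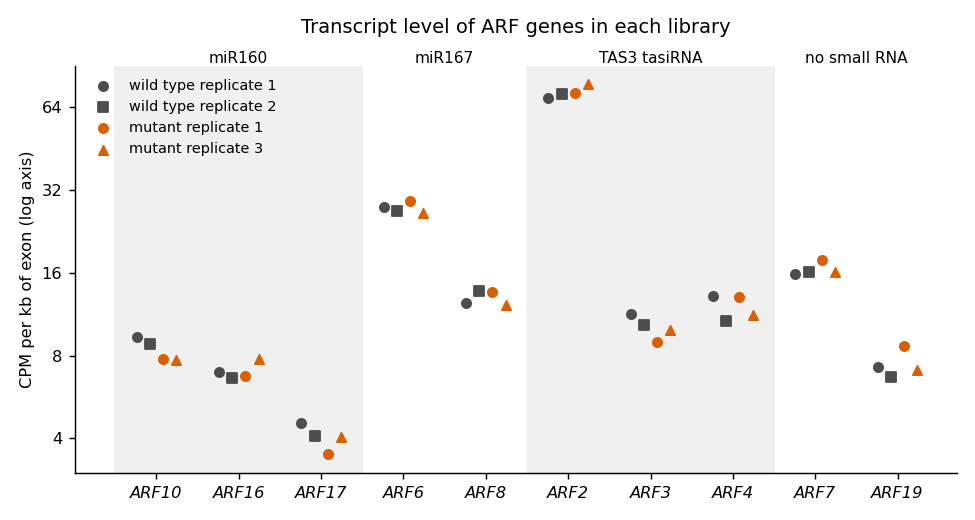
Level of each ARF gene in CPM per kb of exon (log axis), 1 point per library, with genes grouped by the small RNA that cuts them. ARF2 lies highest at 69.4 to 77.6 and ARF17 lowest at 3.495 to 4.54, and the points of wild type and mutant lie close together within each gene.

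The comparison of genotypes asked whether these transcripts differed in seedlings with the mutated MAC3B. None of the 10 ARF genes passed the threshold (0 of 10 in the quasi-likelihood test of edgeR, with Benjamini-Hochberg adjustment over 20483 genes and a limit of 0.05), and none had an unadjusted p under 0.05. Over all genes tested 3.01% passed (1.68% higher and 1.33% lower in the mutant) and 14.7% had an unadjusted p under 0.05. DESeq2 on the same counts also called 0 of the 10, and in the authors' deposited table their adjusted p-values ran from 0.588 to 0.982. The log2 fold changes, mutant over wild type, ran from -0.23 to 0.17 with 6 above 0 and 4 below, and their median of 0.02 stood beside 0.00 over all genes. The 95% intervals of the 10 genes together spanned -0.53 to 0.41, so that changes beyond those bounds were outside every interval. In 4 of the 10 genes the libraries of the genotypes did not overlap, as in 44.7% of all genes.

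The miR160 targets had the lowest class median, though ARF3 of the tasiRNA class lay below ARF17 and ARF16 lay above every miR167 and tasiRNA target. ARF10, known from root cap formation and seed germination, had 27.1 and 25.7 CPM in the wild-type libraries against 22.6 and 22.5 CPM in mutant replicates 1 and 3. Both mutant libraries lay below both wild-type libraries. Its log2 fold change of -0.23 (SE 0.116, 2 libraries a genotype, 95% interval -0.47 to 0.01) had the smallest p of the 10, 0.0641, and an adjusted p of 0.377 with edgeR. ARF17, known from adventitious rooting and pollen, stood at 13.5 and 12.1 CPM against 10.4 and 12.02 CPM in the mutant. The genotypes were apart there too, by a margin far smaller than the spread within either, and the log2 fold change was -0.19 (SE 0.165, edgeR adjusted p = 0.671). ARF16, which acts with ARF10 in the root cap, had 17.5 and 16.7 CPM against 16.9 and 19.5 CPM in the mutant. These values overlapped, and the log2 fold change of 0.09 (SE 0.138, edgeR adjusted p = 0.822) had the other sign.

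The miR167 targets ARF6 and ARF8, which together drive flower maturation and adventitious rooting, hardly differed between genotypes. The level of ARF6 was 112.9 and 108.9 CPM in the wild-type libraries, against 118.4 and 106.7 CPM in the mutant. For ARF8 the wild-type libraries gave 44.5 and 49.3 CPM and the mutant ones 48.9 and 43.7 CPM. The mutant libraries lay on either side of wild type for ARF6, and for ARF8 the first was within the wild-type range and the other just below it. The log2 fold changes were 0.02 for ARF6 (SE 0.0812, 95% interval -0.15 to 0.19) and -0.02 for ARF8 (SE 0.0990, 95% interval -0.23 to 0.19), with edgeR adjusted p-values of 0.944 and 0.958.

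The tasiRNA targets went in different directions. ARF3 (ETTIN), which patterns the gynoecium and the lower leaf side, measured 32.5 and 29.7 CPM in wild type, against 25.7 and 28.6 CPM in the mutant. The mutant libraries were both lower, and the log2 fold change was -0.19 (SE 0.113, edgeR adjusted p = 0.449). ARF4, its partner in leaf polarity, had 42.9 and 34.8 CPM against 42.7 and 36.5 CPM, and the wider spread lay within the genotypes (log2 fold change 0.03, SE 0.114, edgeR adjusted p = 0.950). ARF2 had 268 and 278 CPM in wild type, against 279 and 300.2 CPM. Both mutant libraries were higher by a small step, with a log2 fold change of 0.08 (SE 0.0728, edgeR adjusted p = 0.657).

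ARF7, the activator behind phototropism and lateral root formation, and ARF19, its partner in lateral roots, are the pair without a small RNA site. ARF7 gave 70.2 and 71.5 CPM in the wild-type libraries, against 79.0 and 71.4 CPM in the mutant. For ARF19 the values were 31.5 and 28.8 CPM, against 37.4 and 30.7 CPM. In both genes mutant replicate 1 was the highest library, while mutant replicate 3 lay within the wild-type range. Their log2 fold changes were 0.08 (SE 0.0862) and 0.17 (SE 0.116), with edgeR adjusted p-values of 0.722 and 0.538. Exons of ARF7 overlap an opposite-strand gene over 1.58% of their length and those of ARF19 share 0.139% with a neighbour, and counting did not use strand. The exons of the 8 other members share none.

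**Figure D2:**
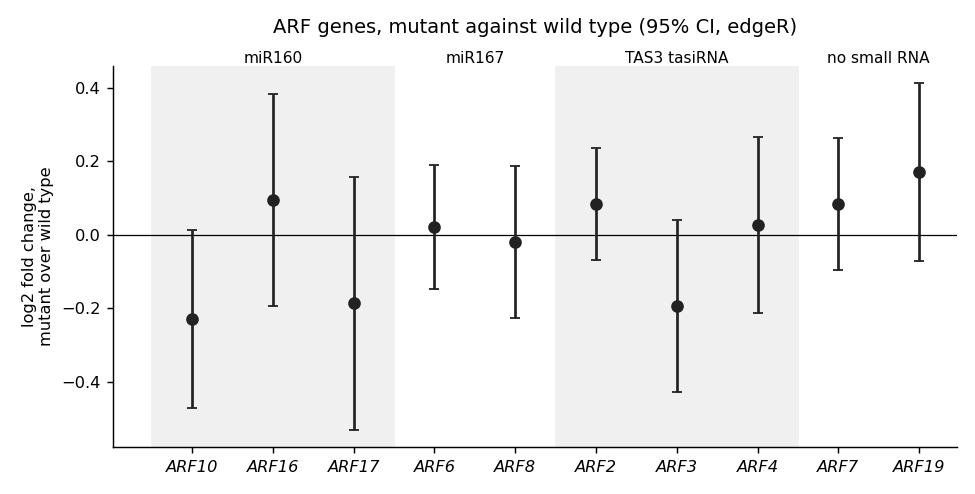
Log2 fold change of each ARF gene, mutant over wild type, with its 95% interval from the edgeR fit (n = 2 libraries per genotype), grouped by small RNA. All 10 intervals include 0, from -0.23 for ARF10 to 0.17 for ARF19.

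Set against ARF7 and ARF19, the 8 genes cut by small RNAs had a median log2 fold change of 0.00 against 0.13, a difference of -0.13. By class the medians were -0.19 for miR160, 0.00 for miR167 and 0.03 for tasiRNA targets. The same difference of medians, taken in each library from log2 CPM centred on the gene's mean, was 0.11 and 0.09 in the wild-type libraries, against -0.21 and 0.00 in mutant replicates 1 and 3. The genotypes did not overlap, the mutant libraries lay 0.21 apart, and the pooled SD within genotypes was 0.105. No test was made on this difference, since 2 libraries against 2 cannot give a small exact p and the members were chosen. Summed over its 3 genes, the miR160 class stood at 58.0 and 54.4 CPM in wild type, against 49.9 and 54.0 CPM in the mutant, 0.924 times the wild-type mean. The tasiRNA class summed to 344 and 342 CPM against 347 and 365 CPM, most of it ARF2. ARF7 and ARF19 summed to 102 and 100.3 CPM against 116 and 102 CPM. The uncut side of the contrast is that pair alone. The 5 testable ARF genes outside the 10 members had a median log2 fold change of -0.12, with 2 above 0 and 3 below.

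Reads at the loci of the small RNAs themselves were sparse. They come from polyadenylated precursor transcripts, not from mature small RNAs, which these libraries do not hold. Of 12 loci (MIR160, MIR167, MIR390 and TAS3 genes) 5 had enough counts to test, and 1 passed. MIR167D had 6.45 and 7.97 CPM in the wild-type libraries but 2.67 and 3.36 CPM in the mutant, from 65 to 191 counts. Both mutant libraries were at less than 50% of the wild-type mean, and the log2 fold change was -1.25 (SE 0.256, edgeR adjusted p = 0.00860). The authors' own DESeq2 results give this locus an unadjusted p of 0.00012 and no adjusted p. Leaving out wild type replicate 2 gave an adjusted p of 0.149. In the same libraries the miR167 targets ARF6 and ARF8 stood at 93.2% to 107% of their wild-type mean, with the intervals given above.

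The other precursors gave no call. TAS3A had 8.70 and 10.8 CPM in wild type, against 8.52 and 9.94 CPM, overlapping values with a log2 fold change of -0.07 (SE 0.187, edgeR adjusted p = 0.909). MIR160B had 10 to 27 counts per library and a log2 fold change of 0.90 (SE 0.683, edgeR adjusted p = 0.596). MIR160C (0.03) and MIR167B (0.36) were as thinly covered, with 6 to 29 counts. MIR160A, MIR167A, TAS3B and TAS3C had at most 10 counts in any library. MIR167C, MIR390A and MIR390B had no count in any library, which allows up to 0.0996 to 0.128 CPM (3 counts, counting error only).

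**Figure D3:**
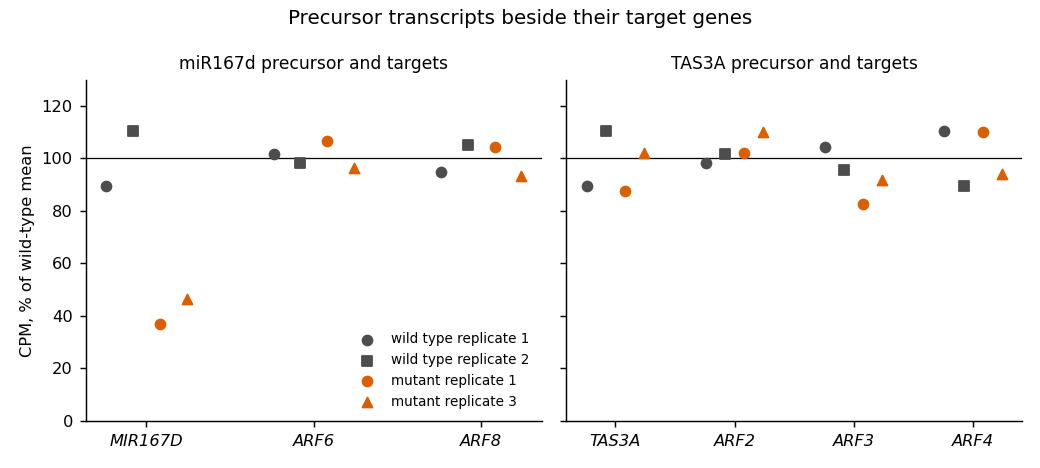
Level of the MIR167D and TAS3A loci and of the ARF genes their small RNAs cut, as a percentage of the wild-type mean CPM, 1 point per library. MIR167D lies at 37.1% and 46.6% in the mutant, while ARF6 and ARF8 lie at 93.2% to 107%.

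The proteins that make and use these small RNAs were followed through 11 genes, and none of the 11 passed. HYL1, the double-stranded RNA binding partner of the Dicer enzyme DCL1, had the smallest p (0.0571). Its values were 14.3 and 13.7 CPM in wild type, against 9.30 and 12.7 CPM in the mutant, where both libraries were lower, with a log2 fold change of -0.35 (SE 0.172, edgeR adjusted p = 0.360). The median of the list was -0.06.

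Among the 13 further ARF genes 5 were testable, and none passed. ARF11 had the smallest p (0.0427), with 15.7 and 16.5 CPM in wild type, against 18.6 and 20.8 CPM. Its libraries were separate, and the log2 fold change was 0.29 (SE 0.136, edgeR adjusted p = 0.314). The median of the 5 was -0.12, with 2 above 0 and 3 below. Both mutant libraries lay above wild type in 1 and below it in 3 (22.3% and 22.4% over all genes). The other 8 (ARF12 to ARF15 and ARF20 to ARF23) had at most 0.263 CPM in any library. ARF12 and ARF20 had a few counts, and the remaining 6 had none.

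Around the ARFs, the auxin receptors and co-repressors gave no call, and 1 Aux/IAA gene and 1 auxin-responsive gene did. None of 6 receptor genes passed, with AFB5 nearest (log2 fold change 0.10, edgeR adjusted p = 0.666), and none of 5 co-repressor genes, with TPR2 nearest (0.12, edgeR adjusted p = 0.577). Of 29 Aux/IAA genes 24 were testable and 1 rose. IAA1, an early auxin-induced repressor of ARFs, went from 11.5 and 11.2 CPM to 16.003 and 18.4 CPM. Its log2 fold change was 0.60 (SE 0.152, edgeR adjusted p = 0.0338). In the authors' own DESeq2 results its adjusted p was 0.0548. DESeq2 gave an adjusted p of 0.0697, and edgeR gave 0.247 or 0.232 with wild type replicate 1 or 2 left out and 0.0678 with mutant replicate 3 left out. In the list as a whole 5 of 24 had an unadjusted p under 0.05, all 5 higher, beside 14.7% of all genes in either direction. The mutant libraries lay above in 8 and below in 0 (22.3% above and 22.4% below over all genes), and the median log2 fold change was 0.07.

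Of 12 genes known to respond to auxin through ARFs, 1 rose. In the authors' own DESeq2 results GH3.5 had an adjusted p of 0.0125. GH3.5, which conjugates auxin to amino acids, went from 84.9 and 89.0 CPM to 109.4 and 109.5 CPM, so that the libraries were well apart. Its log2 fold change was 0.33 (SE 0.0797, edgeR adjusted p = 0.0246), and the adjusted p was 0.425 and 0.210 without wild type replicates 1 and 2. The median of the list was 0.12, with 7 genes above 0 and 5 below. An unadjusted p under 0.05 was reached by 4 of the 12, all higher (GH3.5, LBD16, PIN3 and PIN4), beside 14.7% of all genes. PIN3, an auxin efflux carrier gene, had 162.1 and 162.8 CPM in wild type, against 186.7 and 200.6 CPM, with a log2 fold change of 0.25 (SE 0.0747, edgeR adjusted p = 0.0707), while the authors' deposited table gives it an adjusted p of 0.0464. PIN4, its close relative, had a log2 fold change of 0.21 (SE 0.0826, edgeR adjusted p = 0.223). LBD16, the lateral root gene that ARF7 and ARF19 activate directly, had 2.29 and 2.42 CPM in wild type, against 4.24 and 5.004 CPM in the mutant (log2 fold change 0.97, SE 0.298, edgeR adjusted p = 0.0856). LBD16, PIN3 and PIN4 were named after their values were seen. LBD18 and LBD29, further targets of both, were under 1.5 CPM in every library.

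**Figure D4:**
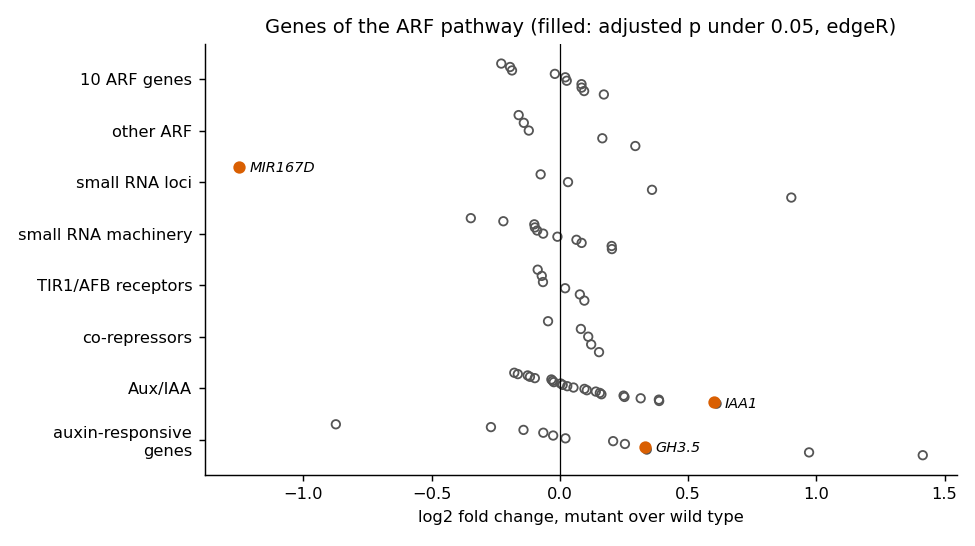
Log2 fold change, mutant over wild type, of every testable gene in the lists around the ARFs, 1 point per gene, with filled points for adjusted p under 0.05 (edgeR). MIR167D (-1.25), IAA1 (0.60) and GH3.5 (0.33) are filled, and the 10 ARF genes lie between -0.23 and 0.17.

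By profile over the 4 libraries, the list genes nearest to ARF10 were the auxin-induced SAUR19, the homeobox gene HAT4 and the receptor gene AFB4. The measure was the root mean square difference of centred log2 CPM, which was 0.0451, 0.0760 and 0.0815 over 68 genes ranked. These differences are smaller than the SE of the fold change of ARF10 (0.116) and cover 4 libraries only.

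Across the series, library totals were 23436163 to 30105517 counts, and 345 genes rose and 272 fell. Reads counted at MAC3B rose by 2.72 on the log2 scale, from 156 and 162 CPM to 1147 and 947 CPM, and its close copy MAC3A did not pass (0.01). Reads of the transgene and of the gene's own copy cannot be told apart in these counts. The higher MAC3B level and the substitutions come together in the mutant libraries, so their parts cannot be told apart either. The 3 leaf markers were present, summing to 23173 and 22072 CPM in wild type, against 19523 and 20400 CPM. All 3 were lower in both mutant libraries and CAB3, a chlorophyll-binding protein gene, fell (-0.32, edgeR adjusted p = 0.0261). The 6 root markers summed to 123 and 121 against 127 and 136 CPM with 0 called. Their log2 fold changes were above 0 in 5 and below in 1, with a median of 0.16. Both mutant libraries were higher in 3 of them and lower in 0 (22.3% and 22.4% over all genes). Markers of flowers and seeds, organs that seedlings lack, summed to 1.00 to 5.80 CPM. The 2 shoot meristem markers, STM and CLV3, summed to 3.03 and 1.67 CPM in wild type, against 3.25 and 2.11 CPM. STM, the 1 that was testable, did not pass (log2 fold change 0.16, edgeR adjusted p = 0.910). The stem cell gene CLV3 was at 0.0329 to 0.165 CPM. The part of organ proportions in the values of the ARF genes was not tested, and in whole seedlings fewer cells of a type and less RNA per cell cannot be told apart.

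The introns of ARF genes were followed in 2 deposited tables. The first gives each intron a score in 2 columns per genotype, a scaled coverage whose making is not stated. Its columns are named by genotype, and their names do not tie them to replicates. The 65 introns described here belong to the 8 genes cut by small RNAs. No intron was listed there under the identifiers of ARF7 and ARF19, so introns of cut and uncut genes could not be compared. Of the 65, 24 were at 0 in all 4 columns, 41 were testable and only 3 were above 0 in every column (4.62%, against 13.6% of all 79373 introns). None of the 41 passed (limma on log2(score + 1), adjusted p under 0.05) and none had an unadjusted p under 0.05. Over all 41390 introns tested 0% passed and 1.79% had an unadjusted p under 0.05. The columns of the genotypes were separate in 4 of the 41, 3 with the mutant higher and 1 lower, against 12.2% and 9.69% of all introns. Of all 79373 introns, 29.9% and 28.7% were above 0 in wild-type columns 1 and 2, and 27.7% and 35.5% in mutant columns 1 and 2. Mutant column 2 was thus above 0 most often. How far such differences between columns enter the introns seen in 1 genotype only was not tested.

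An absolute difference of at least 4, the limit of a second sheet the authors deposited, was reached by 2 ARF introns, as by 2.94% of all introns listed. Intron 3 of ARF16 (chromosome 4, 14703439 to 14703546, between coding exons) follows the exon with the miR160 site. Its score was 0 in both wild-type columns and 48.8 and 30.3 in the mutant columns, so it was covered only in the mutant columns. The difference was 5.30 on the log2(score + 1) scale (SE 2.57, limma adjusted p = 0.625). Scores times length correspond to 416 and 324 covered bases over an intron of 108 bases, a mean depth of 3.85 in the deeper column.

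The other was intron 12 of ARF2 (chromosome 5, 24914137 to 24914227), which follows the exon with the tasiRNA site. It scored 25.8 and 49.4 in the wild-type columns but 1.53 and 0.333 in the mutant ones, the opposite order, with a difference of -4.32 (SE 2.32, limma adjusted p = 0.625). The next intron of ARF2, intron 13, went the other way, with scores of 36.3 and 22.8 against 63.5 and 70.3 in the mutant and a difference of 1.19. Intron 1 of ARF6 (chromosome 1, 10689908 to 10689993) scored 0 in both wild-type columns and 8.54 and 11.2 in the mutant columns, a difference of 3.43 (SE 2.49, limma adjusted p = 0.625), from a mean depth of 0.674 and 1.10. The best covered ARF intron, intron 5 of ARF4, scored 98.7 and 223 in wild type, against 110 and 112, with no separation of the genotypes. ARF10 had a score of 0 in every column at the 2 introns listed for it, and the intron of ARF17 was above 0 in mutant column 2 only.

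**Figure D5:**
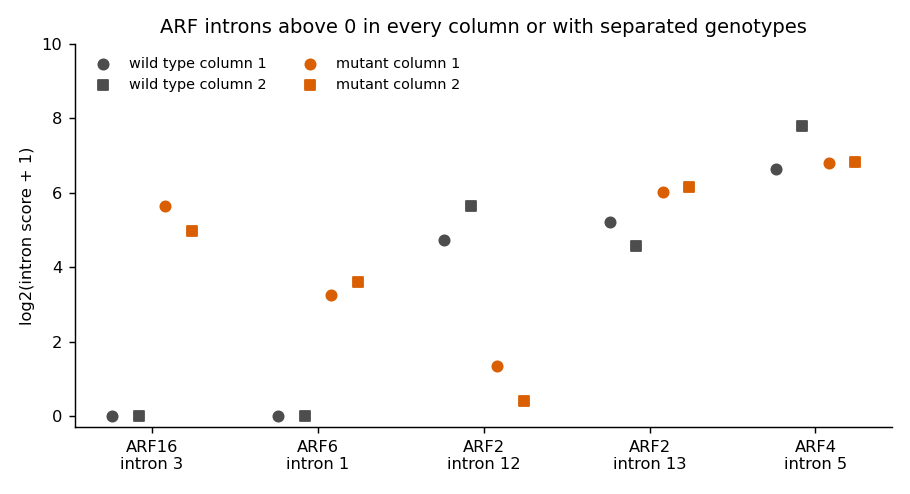
Intron score, as log2(score + 1), in the 2 wild-type and 2 mutant columns for the 5 ARF introns that were above 0 in every column or had separate genotypes. Intron 3 of ARF16 and intron 1 of ARF6 are at 0 in wild type and above it in the mutant, intron 12 of ARF2 is lower in the mutant, and intron 5 of ARF4 overlaps.

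The second table holds retained introns called with rMATS, with groups numbered 1 and 2 that are not named by genotype, so no direction by genotype can be given. It holds 3 events in ARF genes, and none passed a false discovery rate of 0.05 (0 of 3), while 16.5% of all 4690 events did. An unadjusted p under 0.05 was reached by 2 of the 3, in ARF2 and ARF4, and by 27.9% of all events. In the first intron of ARF2, in the 5′ UTR (chromosome 5, 24910611 to 24910712), the retained share was 0.13 and 0.157 in group 1 and 0.089 and 0.132 in group 2 (false discovery rate 0.167 in the authors' deposited table). Most reads had it spliced out, and the groups overlapped. In ARF4 an intron annotated in 1 transcript (24312019 to 24312090) was kept in nearly all reads, at 0.92 and 0.965 in group 1 and 1.0 and 0.949 in group 2 (false discovery rate 0.133). In ARF8 the intron at 14630576 to 14630681 gave 0.178 and 0.109 against 0.276 and 0.032 (false discovery rate 0.822), where the libraries of group 2 lay on either side of group 1.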

How the data were processed

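The ARF members, the gene lists and the tests were chosen with earlier results of these data known, so no pattern here is independent support for them. The authors deposited raw gene counts, which featureCounts 2.0.1 took from read pairs over annotated TAIR10 exons without a strand option, per the file headers. Exon length per gene was deposited beside them, another kind of value, and was used to scale levels. Per the submitters' processing notes the aligners were HISAT2 2.2.0 and STAR 2.7.9a, and DESeq2 1.30.1 was used. The aligner behind each file and the rMATS version were not given in the sources used here. The authors' deposited DESeq2 table holds log2 fold changes, a mean signal, a test score and p-values per gene. The deposited intron score is a coverage signal: score times length was a whole multiple of 1 factor per column (within 0.02) for 99.986% to 100% of introns above 0. The authors also deposited its mean log2(score + 1) per genotype and their difference, and 8 columns of single log2 values that were not used. The deposited rMATS table gives p-values, an inclusion difference (a score) and cells joining other values (reads, inclusion levels, effective lengths).

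Counts were filtered (filterByExpr), normalized with TMM and tested in R 4.3.3 with edgeR 4.0.16 (glmQLFit, glmQLFTest, genotype as the only term, all 4 libraries, Benjamini-Hochberg at 0.05). The SE is the fold change over the root of F, and intervals are 95%. The common biological coefficient of variation was 0.0971. Intron scores were tested with limma 3.58.1 on log2(score + 1). Both tests were also run on simulated data. For genes of at least 5 CPM, edgeR recovered 28% of simulated 1.25-fold changes, 57.7% of 1.5-fold and 91.8% of 2-fold changes. The limma test recovered simulated shifts of 4 on the log2 scale at a small even spread, but none at each intron's own spread. A lack of intron calls therefore does not show that introns were unchanged. Column names of the count table were tied to samples by the sample descriptions. Sequence came from RefSeq, where 99.95% of 32548 shared genes had the same start and end as in the count table.

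Named genes were all members, then from each list the genes past the threshold (up to 4) or, with none, the one with the smallest p, all detected small RNA loci, and the 3 introns with the largest difference at a mean score of at least 1. Other genes and introns were named after their values were seen. Depth limits a gene at 0 to 0.0996 to 0.128 CPM. The alternatives tried changed the scaling (RLE, or totals alone), the tool (DESeq2 1.42.0), the filters, the pseudocount or the set of libraries.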

Additional observations from a re-analysis of the deposited data

How the results depend on the processing

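None of the 10 ARF genes passed the threshold under any of the 9 alternatives run, and the lowest adjusted p among them was 0.106 (edgeR, ARF19 without mutant replicate 3). The sign of small fold changes did move: ARF8 was 0.017 with library totals as the scaling, and with each library left out in turn ARF4 ran from -0.12 to 0.19, ARF6 from -0.055 to 0.094, ARF8 from -0.10 to 0.059 and ARF16 from -0.015 to 0.19. A genotype left with 1 library is assumed to vary like the other. The difference of medians between cut and uncut members stayed below 0, from -0.23 to -0.10. Over all genes the 617 calls became 1090 without a filter on low counts and 135 to 1848 with a library left out (135 and 220 when wild type replicate 1 or 2 was dropped, 1006 and 1848 when mutant replicate 1 or 3 was), and library totals moved the share of calls that were higher from 55.9% to 72.3%. Introns past the threshold numbered 3 at a mean score of at least 1 and 0 to 7356 with a column left out; the 7356 came without mutant column 1, where intron 3 of ARF16 (limma adjusted p = 0.0180) and intron 1 of ARF6 (0.0168) also passed. The cause was not tested. A count test on recovered units was not run, since the units are covered bases and not reads. With the log2 fold change of the gene count subtracted, the differences were 5.21 for intron 3 of ARF16, -4.41 for intron 12 of ARF2 and 3.41 for intron 1 of ARF6. These values come with no test and no count of introns, since the column names do not tie scores to libraries. No paired analysis was possible because the genotypes share 1 replicate number only: number 1 by the sample titles, and number 3 by the column names of the count table, which number wild type differently. With 2 libraries per genotype the 95% intervals of the ARF genes reached -0.53 and 0.41, and 24 of the 65 ARF introns had no coverage in any column.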
